A study of Mus musculus with 4 samples.

Results

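Mouse genes named Zfp plus a number mostly encode proteins with C2H2 zinc fingers, and 283 of them were described here by their RNA levels in cells with wild type or K36M histone H3.3. A gene was included when its symbol was Zfp, digits and at most 1 further letter, and when its expected counts summed to at least 500 over the 4 libraries. Expected counts are RSEM's estimates of the reads of a gene and need not be whole. Of 20325 gene symbols in the expression matrix, 352 had such a name, after the rule had set 1 symbol aside, and 283 reached the sum. Another 69 did not reach it, 3 of them with no count at all.

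All cells were C3H10T1/2, a multipotent mesenchymal line from embryos of C3H mice, at passage 10 to 15. Both groups stably expressed H3.3 with a FLAG-HA tag. The transgene encoded wild type H3.3 in the group called WT (2 libraries) and the K36M mutant, in which a lysine is replaced by methionine, in the group called K36M (2 libraries). The labels do not state the promoter of the transgene, whether each line was 1 clone, or whether replicates were separate cultures. The p-values rest on the spread between libraries, which can be purely technical. In RNA of bulk cells, fewer cells of a type and less RNA per cell cannot be told apart.

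A C2H2 finger folds around a zinc ion and reads a few bases of DNA, and proteins with many fingers in a row can recognise long sequences. Many of these proteins also carry a KRAB domain, which binds the corepressor Trim28 and, through it, the H3K9 methyltransferase Setdb1. KRAB zinc finger proteins are best known for silencing transposable elements and for guarding imprinted regions, and their genes often lie in clusters of near copies. Other Zfp names belong to proteins that bind RNA, modify proteins or act as transcription factors. Loss of H3K36 methylation is the known effect of the K36M histone, which inhibits H3K36 methyltransferases.

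Libraries held 23343297 to 56041798 expected counts, with both K36M libraries deeper than both WT libraries. Markers of the mesenchymal line were present in all 4 libraries, and Col1a1, Col1a2, Col3a1 and Vim were at 1880 CPM or more in each (CPM are expected counts scaled by TMM to equal library sizes). Their levels differed between the groups in both directions, with log2 fold changes from -1.53 (Col3a1), -0.79 (Col1a2) and -0.54 (Vim) to 0.88 (Twist1) and 3.48 (Thy1). Of 10 markers of blood, epithelium, endothelium and neural cells, Epcam had no count, and 5 had enough counts to be tested, of which 4 were higher in K36M and Cd68 did not pass. Their summed level was 20.7 to 21.4 CPM in WT and 78.1 to 79.1 CPM in K36M, led by Hba-a1 at 26.7 and 25.3 CPM in K36M. The part of these markers in the results on Zfp genes was not tested.

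More Zfp genes fell than rose in K36M cells, and most of the differences were small. By edgeR's quasi-likelihood test with Benjamini-Hochberg adjustment over 13162 genes, 39 of the 283 (13.8%) were higher in K36M and 158 (55.8%) were lower at an adjusted p under 0.05, while 86 passed in neither direction. Among all 10609 tested genes with a sum of at least 500, 37.1% were higher and 40% lower. Among all 13162 tested genes these shares were 38.5% and 37.1%. The median log2 fold change of the Zfp genes was -0.22, with quartiles of -0.46 and 0.03, against a median of -0.02 over the 10609 genes. The log2 fold change was negative for 205 of the 283. Both K36M libraries lay below both WT libraries for 180 Zfp genes and above them for 56, where 45.8% and 42.4% of the 10609 genes, and 43.1% and 44% of all 13162, did so. No p-value is given for the list, since its genes were chosen with results of these data known and many share sequence.

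By size, rises of at least 1.5-fold were few among the 283 genes, while falls of that size were about as frequent as over all genes. On the fitted fold change, 8 rose (2.83%) and 41 fell (14.5%) at least 1.5-fold, where 12.8% and 13.5% of the 10609 genes, and 18.7% and 15.3% of all 13162, did so. At least 2-fold, 2 Zfp genes rose (0.707%) and 8 fell (2.83%), where 6.37% and 6.73% of the 10609 genes, and 12.7% and 8.69% of all 13162, did so. Together the 283 genes held 0.809% and 0.827% of all counts in the WT libraries and 0.738% and 0.753% in the K36M libraries, so the groups did not overlap. Split by mean CPM, the lowest group of 94 Zfp genes had a median log2 fold change of -0.32 (6 rose, 53 fell), the middle 94 a median of -0.23 (14 rose, 51 fell) and the highest 95 a median of -0.16 (19 rose, 54 fell). The difference between these groups was not tested.

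**Figure D1:**
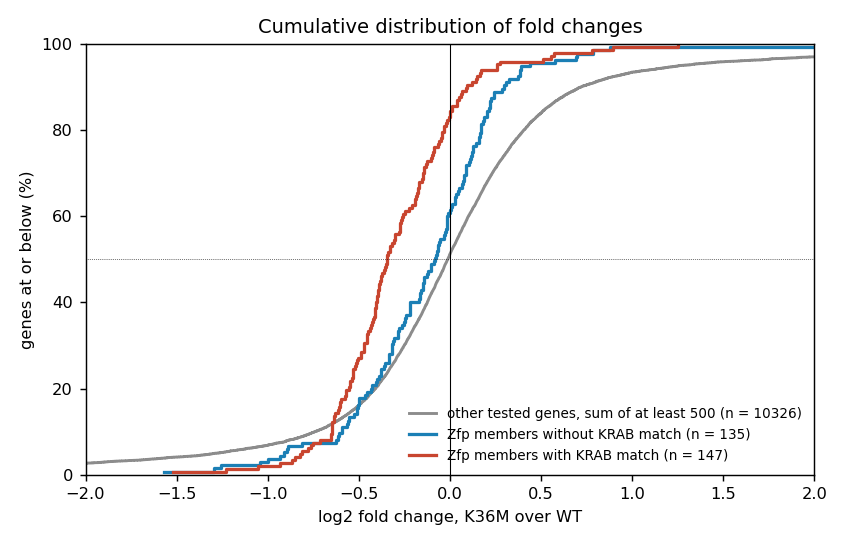
Cumulative share of genes (percent, vertical axis) at or below each log2 fold change of K36M over WT (horizontal axis, drawn from -2 to 2), for Zfp genes with and without a match to the KRAB domain and for the other tested genes with a sum of at least 500. The curve of the 147 genes with a KRAB match crosses 50% at -0.35, that of the 135 without a match at -0.08, and that of the other genes near 0.

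Zfp467, a factor known to push mesenchymal progenitors toward fat and away from bone, had the largest rise among the 283. Its level was 1.09 and 0.999 CPM in the WT libraries and 6.41 and 7.11 CPM in the K36M libraries, a log2 fold change of 2.68 (SE 0.17, edgeR adjusted p = 4.74e-11). The WT level rested on 27 and 23 counts. Zfp57, a KRAB protein that keeps DNA methylation at imprinted control regions, was at 8.84 and 7.43 CPM in WT cells and 19.03 and 19.8 CPM in K36M cells (2.39-fold by mean CPM, adjusted p = 5.61e-10). These 2 were the only Zfp genes with a sum of at least 500 that rose at least 2-fold, and in both the groups were far apart beside the gap between libraries of a group.

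Rises below 2-fold included a pair of related genes. Zfp518b, whose product binds the H3K9 methyltransferase G9a, went from 22.5 and 21.3 CPM to 39.7 and 41.0 CPM (log2 fold change 0.88). Its paralog Zfp518a went from 15.5 and 14.9 CPM to 25.4 and 23.9 CPM (0.70). Zfp827, which recruits the NuRD remodelling complex to telomeres, went from 28.8 and 31.1 CPM to 52.8 and 50.1 CPM (0.79). The other members among the 10 largest rises were Zfp7 (0.90), Zfp764 (0.78), Zfp280b (0.69), Zfp579 (0.58) and Zfp53 (0.57), with adjusted p-values of at most 1.16e-05.

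Zfp239, which encodes the DNA- and RNA-binding protein Mok2, had the largest fall among the 283. It was at 10.1 and 9.56 CPM in WT cells and 3.49 and 3.08 CPM in K36M cells, a log2 fold change of -1.57 (SE 0.11, adjusted p = 3.99e-10). Zfp354c, a KRAB gene, fell from 28.2 and 27.8 CPM to 9.49 and 10.2 CPM (-1.52, SE 0.08, adjusted p = 1.65e-12). Its neighbour in name, Zfp354a, was at 4.04 and 5.65 CPM in WT cells and 4.37 and 4.92 CPM in K36M cells, where the groups overlap.

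Several of the falls were in genes with higher counts. Zfp704 was at 78.4 and 80.6 CPM in WT cells and 32.6 and 31.9 CPM in K36M cells (log2 fold change -1.30, SE 0.05). Zfp637 was at 64.2 and 64.0 CPM in WT cells and 26.4 and 27.4 CPM in K36M cells (-1.26). Zfp266, a KRAB gene, was at 113 and 114 CPM in WT cells and 53.4 and 56.2 CPM in K36M cells (-1.05). In each of these genes the libraries of a group lay within a few CPM of each other. The other members among the 10 largest falls were Zfp334 (-1.23), Zfp703 (-1.04), Zfp174 (-1.0004), Zfp385a (-0.93) and Zfp93 (-0.93), with adjusted p-values of at most 3.37e-06. Zfp174 lay at the 2-fold bound, just past it on the fitted scale and 1.97-fold lower by mean CPM.

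**Figure D2:**
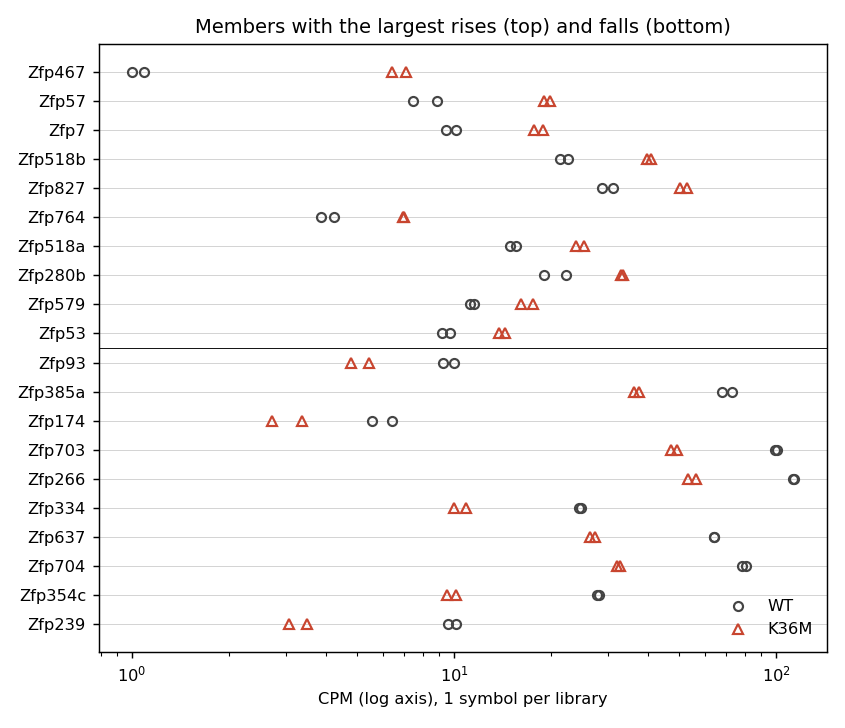
Level in CPM (log axis) of the 10 Zfp genes with the largest rises (upper block) and the 10 with the largest falls (lower block) in each library, as circles for WT and triangles for K36M. In all 20 genes the circles and triangles do not overlap, as the choice of these genes required.

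The proteins were then split by what their sequence holds. In translated coding sequences, 147 of the 283 genes had a match to the core of the KRAB A box in at least 1 isoform, 135 had none, and 1 (Zfp353, a pseudogene in RefSeq) had no coding sequence. Genes with a KRAB match had a median of 12 fingers, against 7 without one, and the most were counted in Zfp142 (40). Of the 147 genes with a match, 10 rose (6.8%) and 96 fell (65.3%), with a median log2 fold change of -0.35 and quartiles of -0.52 and -0.09. Of the 135 without one, 28 rose (20.7%) and 62 fell (45.9%), with a median of -0.08 and quartiles of -0.36 and 0.12. Beside these stand 37.1% higher and 40% lower over the 10609 tested genes with a sum of at least 500. The difference between genes with and without a match was not tested.

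At least 1.5-fold, 3 of the genes with a KRAB match rose (2.04%) and 26 fell (17.7%), against 5 (3.7%) and 15 (11.1%) of those without one. Over the 10609 tested genes with a sum of at least 500, 12.8% rose and 13.5% fell by that much. Of any size, the 10 called rises with a KRAB match included Zfp57, Zfp7, Zfp764, Zfp53 and Zfp772 (log2 fold change 0.55). The others were Zfp52 (0.51), Zfp568 (0.28), Zfp472 (0.26), Zfp316 (0.17) and Zfp110 (0.14). The call for Zfp472 was lost with DESeq2's Wald test (adjusted p = 0.266), limma-voom (0.0643) and the authors' scaling factors in edgeR (0.184). It was also lost without WT replicate 1 (log2 fold change 0.16), K36M replicate 1 (0.29) or K36M replicate 2 (0.23). The call for Zfp110 was lost with DESeq2's Wald test (adjusted p = 0.118) and the authors' factors in edgeR (0.314). It was also lost without WT replicate 1 (log2 fold change 0.11). Zfp316 (edgeR adjusted p = 0.041), Zfp772 and Zfp52 were not checked singly under other settings.

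Finger number was also compared within the genes with a KRAB match. The 40 with 7 to 10 fingers had a median log2 fold change of -0.36 (2 rose, 29 fell), the 64 with 11 to 15 a median of -0.30 (5 rose, 40 fell), and the 31 with 16 or more a median of -0.41 (1 rose, 21 fell). The bins with fewer fingers were small: 7 genes with 4 to 6 had a median of -0.06, 3 with 1 to 3 a median of -0.18, and 2 with none found a median of -0.43. Over all bins the medians did not follow finger number in 1 direction. Without a KRAB match, the medians were -0.28 with no finger found (7 genes), -0.04 with 1 to 3 (24), -0.02 with 4 to 6 (28), -0.14 with 7 to 10 (43), -0.06 with 11 to 15 (18) and 0.00 with 16 or more (15). A match to a fixed pattern of the SCAN domain, a protein pairing domain, was found in 12 members, of which 1 rose and 6 fell (median -0.15). Members whose SCAN domain departs from that pattern are not among these. For comparison, 37.1% of the 10609 tested genes with a sum of at least 500 rose and 40% fell.

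Zinc finger genes with other names were counted in the same way. Of 43 genes with a KRAB match and a sum of at least 500 but no Zfp name, 9 rose and 29 fell, with a median log2 fold change of -0.37. Of 131 genes with 3 or more fingers, no KRAB match and no Zfp name, 40 rose and 60 fell (median -0.09). By name, 4 of 33 Zbtb genes rose and 17 fell (-0.16), 1 of 11 Zscan and Zkscan genes rose and 8 fell (-0.32), and 5 of 16 Zc3h genes, which encode CCCH fingers that bind RNA, rose and 6 fell (-0.05). Over the 10609 tested genes with that sum, 37.1% rose and 40% fell. No difference between these families and the Zfp genes was tested.

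The partners of KRAB proteins were measured beside them. Trim28 was at 249 and 240 CPM in WT cells and 317 and 308 CPM in K36M cells, a log2 fold change of 0.35 (edgeR adjusted p = 1.03e-07). Setdb1 was at 62.6 and 61.9 CPM in WT cells and 62.7 and 67.6 CPM in K36M cells, and did not pass (0.06, adjusted p = 0.265). Of 19 tested genes on a list of KRAB corepressors and their partners, 6 rose (31.6%) and 8 fell (42.1%), with a median of -0.06. Over the 10609 tested genes with a sum of at least 500, 37.1% rose and 40% fell. Chd3, a remodeller of the NuRD complex, was at 186 and 196 CPM in WT cells and 550 and 532 CPM in K36M cells (2.83-fold by mean CPM). Dnmt1, the maintenance DNA methyltransferase, was at 130 and 133 CPM in WT cells and 219 and 210 CPM in K36M cells (0.71). Atrx, part of a chaperone of H3.3 and named here after its values were seen, fell by 0.56 on the log2 scale.

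Zfp genes with other documented roles were grouped by role. The counts of each role list stand beside 37.1% higher and 40% lower over the 10609 tested genes with a sum of at least 500. Among 11 genes acting on RNA, ribosomes or ubiquitin, 4 rose and 4 fell, with a median log2 fold change of -0.02. Zfp385a, an RNA-binding protein, fell from 73.0 and 67.8 CPM to 37.5 and 36.1 CPM (-0.93). Zfp259, also called Zpr1, a chaperone of a translation elongation factor, rose from 28.5 and 29.5 CPM to 36.9 and 39.1 CPM (0.39). The members closest to the median were Zfp91, a ubiquitin ligase (-0.02), Zfp106, an RNA-binding protein (0.03), Zfp593, a factor of ribosome maturation (-0.06), and Zfp346, which binds double-stranded RNA (-0.12). Zfp346 passed the threshold narrowly (adjusted p = 0.041) and lost its call without WT replicate 1 (0.123), WT replicate 2 (0.134) or K36M replicate 2 (0.109).

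Among 14 partners of chromatin complexes, 6 rose and 6 fell, again with a median of -0.02. Zfp518b had the largest rise here. Zfp532, a partner of Zmynd8, had the largest fall, from 36.6 and 38.3 CPM to 25.7 and 25.2 CPM (-0.56). Close to the median were Zfp592, of the same complex (-0.07), Zfp609, a partner of the cohesin loader Nipbl (0.03), Zfp451, a SUMO ligase (-0.15), and Zfp462 (-0.16). The call for Zfp451 was lost without WT replicate 1 (adjusted p = 0.0577) or WT replicate 2 (0.0625), and that for Zfp462 without WT replicate 2 (0.0786). Zfp410, chosen here after its values were seen, is known for activating Chd4. It was at 40.5 and 37.97 CPM in WT cells and 27.2 and 28.5 CPM in K36M cells (-0.50), while Chd4 was at 499 and 518 CPM in WT cells and 547 and 521 CPM in K36M cells (0.07, adjusted p = 0.0911).

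Among 10 genes listed as transcription factors, 3 rose and 4 fell (median -0.09). Zfp281, a factor of pluripotent cells, fell from 48.5 and 51.4 CPM to 25.6 and 27.8 CPM (-0.91, adjusted p = 3.77e-11). Zfp143, an activator that binds many promoters, was at 15.3 and 13.5 CPM in WT cells and 17.4 and 18.4 CPM in K36M cells (0.31, adjusted p = 0.00251), and lost its call without WT replicate 2 (0.0527). Close to the median were Zfp384 (-0.08), Zfp64 (-0.10), Zfp161 (-0.17) and Zfp263 (-0.22), of which the latter pair passed. Zfp384 passed without K36M replicate 2 (adjusted p = 0.0482).

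Of 7 tested genes tied to mesenchymal or other tissue development, 2 rose and 4 fell, with a median of -0.29. Beside Zfp467, Zfp608 rose. Zfp703, a corepressor, was at 100.6 and 98.8 CPM in WT cells and 49.3 and 47.3 CPM in K36M cells (-1.04), while its paralog Zfp503 was at 139 and 140 CPM in WT cells and 122 and 106 CPM in K36M cells (-0.29). Zfp521, which holds mesenchymal progenitors back from the fat lineage, was at 115 and 119 CPM in WT cells and 79.1 and 73.8 CPM in K36M cells (-0.61, adjusted p = 1.14e-09). Zfp37 also fell (-0.43), and Zfp488 did not pass (-0.03, adjusted p = 0.565).

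Of 12 KRAB genes with a documented target or function and a sum of at least 500, 3 rose and 5 fell (median -0.12). Zfp57 was the highest of these and Zfp354c the lowest. Below that sum, Zfp354b (-0.93) and Zfp708 (-0.46) fell, while Zfp13 (-0.24) and Zfp459 (0.02) did not pass. Zfp809, which silences retroviruses through their primer binding site, was at 11.6 and 11.1 CPM in WT cells and 11.2 and 11.6 CPM in K36M cells (0.00, adjusted p = 0.99). Zfp568, known to repress a placental promoter of Igf2, rose from 18.8 and 19.5 CPM to 23.0 and 23.3 CPM (0.28). Zfp90 (0.01), Zfp354a (-0.07) and Zfp30 (-0.17) did not pass.

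Many of the genes sit beside each other in the genome. In the order of genes in RefSeq, 114 of the 283 lay in 14 runs, each of at least 4 members with starts within 500 kb of the next. Of these 114, 10 rose (8.77%) and 68 fell (59.6%), with a median log2 fold change of -0.28. Of the 169 outside runs, 29 rose (17.2%) and 90 fell (53.3%), with a median of -0.17. The shares over the 10609 tested genes with a sum of at least 500 were 37.1% higher and 40% lower. With a KRAB match only, 6 of 87 in runs rose and 57 fell (-0.33), and 4 of 60 outside runs rose and 39 fell (-0.36), so within this class the median was not lower in runs. Neighbouring genes can be near copies, and RSEM splits reads that match several genes, so values of single genes in a run are less certain than elsewhere. The sources used here do not give strand handling.

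A run of 11 genes on chromosome 13, from Zfp759 to Zfp738 and all with a KRAB match, moved in 1 direction. All 11 fell by edgeR, with log2 fold changes from -0.87 to -0.26 and a median of -0.51. With DESeq2's Wald test 6 of them passed, and without K36M replicate 1 edgeR called 8. No member rose, and none had a positive log2 fold change with an unadjusted p under 0.05. Zfp738 was at 23.0 and 21.98 CPM in WT cells and 11.7 and 13.5 CPM in K36M cells (-0.85, SE 0.08). Zfp953 was at 9.04 and 9.34 CPM in WT cells and 4.65 and 5.58 CPM in K36M cells (-0.87, SE 0.11). Zfp759 was at 7.95 and 9.12 CPM in WT cells and 4.68 and 5.07 CPM in K36M cells (-0.81, SE 0.11). Zfp874b fell the least, from 18.9 and 22.03 CPM to 16.9 and 17.4 CPM (-0.26), and lost its call without WT replicate 2 (adjusted p = 0.143).

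Some other runs also had no rise, and the rest were mixed. Log2 fold changes were all negative from Zfp60 to Zfp36 (3 of 5 fell), Zfp930 to Zfp866 (4 of 5) and Zfp560 to Zfp846 (4 of 5). The longest run, with 19 genes on chromosome 17 from Zfp160 to Zfp213, had 3 rises and 11 falls (median -0.34). Its rises included the adjacent pair Zfp53 (0.57) and Zfp52 (0.51). Zfp943 fell furthest there (-0.58). The run of 8 on chromosome 6 held Zfp467, whose neighbours had log2 fold changes from -0.51 (Zfp398) to 0.16 (Zfp775), none of the positive ones past the threshold. A run of 7 on chromosome 7, from Zfp180 to Zfp428, had the lowest median (-0.64), with 4 falls and only negative log2 fold changes. Its lowest member was Zfp93 (-0.93) and its highest Zfp61 (-0.04), which did not pass. Another run on chromosome 7, from Zfp553 to Zfp646, had 2 rises and 2 falls among 10 genes (median 0.03) and ranged from Zfp629 (-0.81) to Zfp764 (0.78).

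The remaining 9 runs had medians from -0.45 to 0.02. Their largest falls were Zfp266 (-1.05), Zfp260 (-0.89), Zfp60 (-0.76), Zfp882 (-0.71), Zfp799 (-0.65), Zfp963 (-0.61), Zfp580 (-0.61), Zfp324 (-0.55) and Zfp28 (-0.53). Their highest members were Zfp579 (0.58), Zfp568 (0.28), Zfp472 (0.26), Zfp444 (0.17), Zfp110 (0.14), Zfp961 (0.01), Zfp869 (-0.03), Zfp607 (-0.10) and Zfp846 (-0.13), of which Zfp444 (adjusted p = 0.0519) and the last 4 named did not pass.

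**Figure D3:**
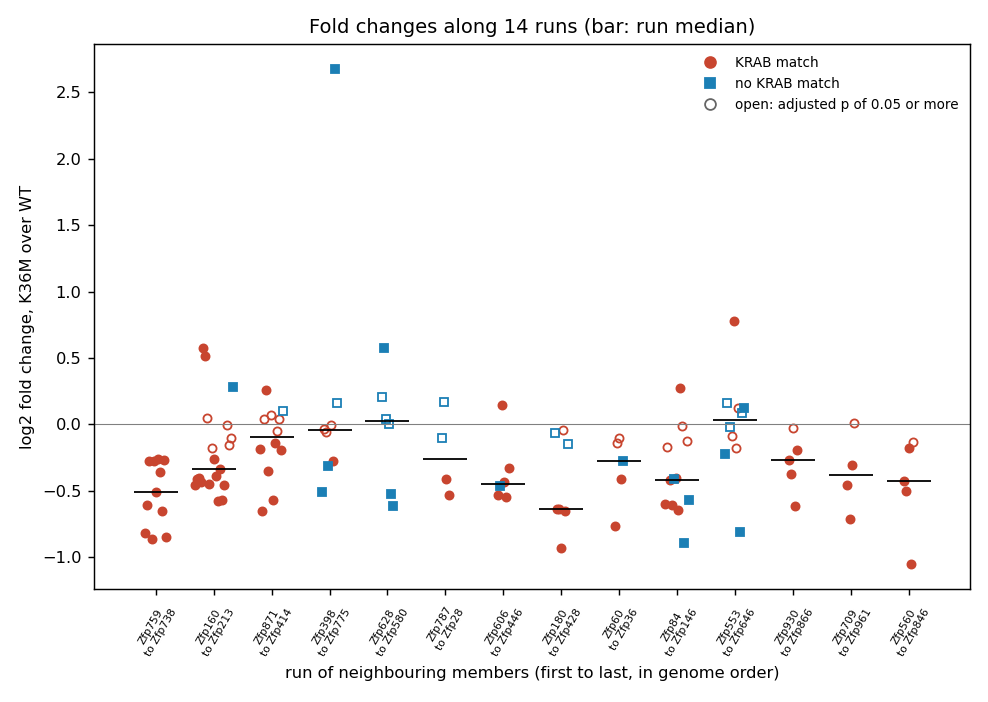
Log2 fold change of K36M over WT (vertical axis) for each of the 114 members in the 14 runs (horizontal axis, in genome order within each run), as circles with and squares without a KRAB match, open where the adjusted p was 0.05 or more, with a bar at each run's median. The first run, on chromosome 13, lies wholly below 0. So do the runs from Zfp180 to Zfp428, Zfp60 to Zfp36, Zfp930 to Zfp866 and Zfp560 to Zfp846. The highest point, in the run on chromosome 6, is Zfp467 at 2.68.

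Promoters of the genes that fell were read for shared letters. RefSeq windows from 250 bases before to 50 after the gene start (mouse build GRCm38.p6) were matched for 232 of the 283 genes, and the first window listed was used for the 43 with several. The windows of 3 genes of the chromosome 13 run, of 3 genes that fell on other chromosomes and, as a contrast, of Zfp467 follow, since they hold the shared letters described next or lack them. Each runs 5′ to 3′ on the gene's strand, with a match to ACTACANNTCCCA or its reverse complement in capitals. These are Zfp953 (chr13:67360523-67360822, minus strand), Zfp738 (chr13:67683463-67683762, minus strand), Zfp759 (chr13:67127978-67128277, plus strand), Zfp334 (chr2:165388210-165388509, minus strand), Zfp93 (chr7:24270168-24270467, plus strand), Zfp260 (chr7:30094826-30095125, plus strand) and Zfp467 (chr6:48445041-48445340, minus strand).
Zfp953: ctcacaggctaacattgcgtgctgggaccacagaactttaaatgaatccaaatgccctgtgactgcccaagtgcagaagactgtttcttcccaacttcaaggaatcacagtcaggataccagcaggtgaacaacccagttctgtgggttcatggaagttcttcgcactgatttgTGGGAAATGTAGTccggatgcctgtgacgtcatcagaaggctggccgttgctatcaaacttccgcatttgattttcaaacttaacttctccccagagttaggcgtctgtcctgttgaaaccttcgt
Zfp738: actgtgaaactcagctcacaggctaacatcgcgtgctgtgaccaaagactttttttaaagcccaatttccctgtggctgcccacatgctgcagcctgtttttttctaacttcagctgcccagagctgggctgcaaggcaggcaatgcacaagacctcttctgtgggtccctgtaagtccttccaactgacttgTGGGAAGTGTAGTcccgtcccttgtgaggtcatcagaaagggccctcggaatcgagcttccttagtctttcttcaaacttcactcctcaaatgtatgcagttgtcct
Zfp759: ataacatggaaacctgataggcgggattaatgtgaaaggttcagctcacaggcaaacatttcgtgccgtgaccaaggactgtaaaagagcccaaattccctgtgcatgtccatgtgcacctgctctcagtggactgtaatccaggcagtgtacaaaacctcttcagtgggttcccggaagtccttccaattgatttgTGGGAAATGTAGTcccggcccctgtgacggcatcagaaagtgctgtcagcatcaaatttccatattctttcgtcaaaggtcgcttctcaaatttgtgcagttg
Zfp334: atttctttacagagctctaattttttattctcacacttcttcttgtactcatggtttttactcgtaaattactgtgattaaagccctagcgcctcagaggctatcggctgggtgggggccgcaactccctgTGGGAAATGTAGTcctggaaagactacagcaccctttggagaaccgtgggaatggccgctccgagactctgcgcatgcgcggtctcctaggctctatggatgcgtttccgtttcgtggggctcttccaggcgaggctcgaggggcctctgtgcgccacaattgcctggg
Zfp93: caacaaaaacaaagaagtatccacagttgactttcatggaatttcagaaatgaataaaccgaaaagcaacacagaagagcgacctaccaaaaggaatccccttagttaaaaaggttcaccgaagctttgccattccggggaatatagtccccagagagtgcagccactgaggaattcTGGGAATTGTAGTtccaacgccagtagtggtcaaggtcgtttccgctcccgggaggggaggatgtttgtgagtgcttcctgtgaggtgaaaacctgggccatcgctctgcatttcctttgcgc
Zfp260: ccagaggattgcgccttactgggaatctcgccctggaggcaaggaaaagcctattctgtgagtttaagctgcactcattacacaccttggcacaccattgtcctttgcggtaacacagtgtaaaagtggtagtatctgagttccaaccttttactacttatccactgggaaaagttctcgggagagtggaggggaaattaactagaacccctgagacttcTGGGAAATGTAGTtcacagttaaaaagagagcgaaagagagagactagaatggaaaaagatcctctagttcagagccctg
Zfp467: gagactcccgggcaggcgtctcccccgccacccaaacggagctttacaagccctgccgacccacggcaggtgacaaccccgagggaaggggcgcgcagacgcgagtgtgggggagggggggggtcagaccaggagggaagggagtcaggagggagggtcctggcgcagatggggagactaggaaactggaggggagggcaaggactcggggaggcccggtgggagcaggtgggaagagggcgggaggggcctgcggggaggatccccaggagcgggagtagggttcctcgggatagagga

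The letters ACTACANNTCCCA are the core of the motif known for Zfp143. Of all words of 6 letters, any 2 and then 5 letters, on either strand, this was in the most of the 232 Zfp windows (33), ahead of an overlapping word of the same site (29), and it was the only 1 in every window given for the chromosome 13 run. The shape of the word was chosen after such letters had been noticed in these windows, so the share in that run describes how they were found. The word was then searched on both strands of the first window listed for every gene symbol, overlapping matches included. In the 6 windows that hold it, the first capital lies 76 (Zfp953), 57 (Zfp738), 53 (Zfp759), 119 (Zfp334), 73 (Zfp93) and 30 (Zfp260) bases before the start, and each match is on the opposite strand. The windows of the chromosome 13 trio are alike beyond the motif, with 66.0% (Zfp953 and Zfp738), 57.2% (Zfp953 and Zfp759) and 66.8% (Zfp738 and Zfp759) of aligned positions identical. Every other pair among the 7 windows had 45.7% to 53.2% identical positions, the highest being Zfp334 and Zfp93. The Zfp467 window is the richest of them in G and C (69.7%).

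The motif was found in 437 of 27025 windows, the first listed for each gene symbol (1.62%). It was in 306 of 7653 windows of tested genes with a sum of at least 500 (4.0%), and in 33 of the 232 Zfp windows (14.2%). With a KRAB match it was in 26 of 127 windows (20.5%), and without one in 7 of 105 (6.67%). All 10 windows given for the chromosome 13 run held it, while Zfp87 of that run had no window. Among the 33 genes there were 34 matches, 24 on the opposite and 10 on the same strand, all before the start, at a median of 55 bases (range 17 to 224). The word was picked for being in the most Zfp windows, so the higher shares there follow in part from that choice. A match describes letters and is not a measured binding site.

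Zfp genes with the motif fell more often than they rose. The motif was noticed in windows of genes that fell, so the counts below describe these genes and test no link. Of the 33, 28 fell and none rose by edgeR, with a median log2 fold change of -0.44, and 1 was higher at an unadjusted p under 0.05. DESeq2's Wald test also called none higher, and limma-voom called 1. Without the run on chromosome 13, 18 of 23 fell and none rose, with the same median of -0.44. Of the 199 Zfp genes whose windows lack the motif, 30 rose and 102 fell (median -0.17). These falls without the motif include Zfp239, Zfp637, Zfp266, Zfp174 and Zfp385a, all among the 10 largest falls. Zfp239, Zfp637 and Zfp385a had a further window each, which was not searched. Among genes with the motif outside the run, Zfp334 was at 24.4 and 24.8 CPM in WT cells and 10.9 and 9.99 CPM in K36M cells (-1.23). Zfp260, a gene of 12 fingers without a KRAB match, was at 66.0 and 69.3 CPM in WT cells and 35.2 and 38.1 CPM in K36M cells (-0.89). In both genes the K36M libraries lay well under the WT libraries. The 5 genes with the motif that did not pass were Zfp691 (-0.24), Zfp180 (-0.06), Zfp317 (0.10), Zfp605 (0.16) and Zfp444 (0.17). No difference between genes with and without the motif was tested. As background, 37.1% of the 10609 tested genes with a sum of at least 500 rose and 40% fell.

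Split by both features, the 26 genes with KRAB match and motif had a median log2 fold change of -0.52 (24 fell, none rose), and the 101 with a KRAB match but no motif a median of -0.30 (8 rose, 60 fell). The 7 with the motif alone had a median of -0.28 (4 fell, none rose), and the 98 with neither a median of -0.07 (22 rose, 42 fell). Among tested genes outside the Zfp set with a sum of at least 500, 90 of 273 with the motif rose and 114 fell (median -0.06), against 2688 and 2847 of 7156 without it (-0.01). CpG dinucleotides per window numbered 11 at the median in Zfp genes with a KRAB match, 21 without a match, and 22 over tested genes with a sum of at least 500.

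**Figure D4:**
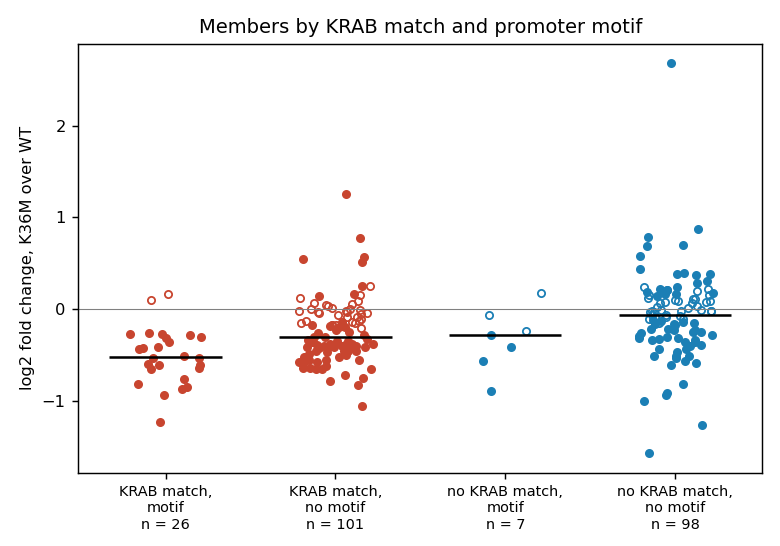
Log2 fold change of K36M over WT (vertical axis) of the 232 Zfp genes with a promoter window, split by KRAB match and by the motif in the window (4 columns), open where the adjusted p was 0.05 or more, with a bar at each median. The column with both features has its median at -0.52 and no closed point above 0.

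Zfp genes near the minimum sum show what the rule took in. Just above 500 were Zfp422 (sum 518, log2 fold change -0.02), Zfp697 (522, 0.44) and Zfp438 (523, -0.33), and just below were Zfp108 (477, -1.14), Zfp951 (468, -0.04) and Zfp345 (465, 0.59). Leaving out 1 library ended the call for Zfp697 (adjusted p = 0.0913 without WT replicate 2 and 0.057 without K36M replicate 1) and for Zfp438 (0.436 without WT replicate 1 and 0.121 without K36M replicate 1). K36M libraries were deeper and so weighed more in the sum, and 77 of the 283 genes did not reach 500 in WT alone. All 283 passed the filter on low counts, and none was at 0 in any library. Of the 69 genes below the sum, 46 were tested, of which 11 rose (23.9%) and 15 fell (32.6%), with a median of -0.21. At least 2-fold, 7 of the 46 rose (15.2%) and 5 fell (10.9%), at low counts. Of all 13162 tested genes, 38.5% rose and 37.1% fell, and 12.7% and 8.69% did so at least 2-fold. Named after their values were seen, Zfp600 (log2 fold change 2.78, from 2.96 and 8.82 expected counts in WT to 74.2 and 83.2 in K36M) and Zfp385c (-2.15, from 17.2 and 23.3 to 10.2 and 7.35) lay beyond the extremes of the 283.

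Zfp641, 1 of those below the sum, was detected in K36M libraries only. It had 0 counts in both WT libraries and 89.6 and 45.0 expected counts in the K36M libraries. Against a floor of 3 counts over both WT libraries (0.0628 CPM), its mean of 1.44 CPM in K36M was at least 22.9-fold higher. It was also the only one of the 352 genes in the authors' deposited table of changed genes, which gives it a fold of 46.4. Its WT values there are 0 in both libraries, as log2 of scaled counts with a constant added. The fold of 46.4 is thus a ratio to that constant and is not comparable with the 22.9-fold above. That table was not made by the threshold used here, so absence from it does not show that a gene was unchanged.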

How the data were processed

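RNA of 4 libraries (WT replicates 1 and 2, K36M replicates 1 and 2) was sequenced, and groups and replicate numbers came from the titles. Per the submitters' processing notes, the tools were Bowtie 1.0.0 and RSEM 1.2.12 on mm9. The authors deposited expected counts per gene symbol, estimates that are not normalized, and a second table. In the second table the authors' values are log2 of scaled counts with a constant added, and a linear fold ratio. Expected counts were rounded and tested with edgeR 4.0.16 (R 4.3.3): filterByExpr, TMM scaling and a quasi-likelihood F test, adjusted by Benjamini-Hochberg over 13162 genes, called at an adjusted p under 0.05. The fit had 2 residual and 15.7 prior degrees of freedom and a common coefficient of variation of 3.33%. It was tested on simulated data. Precision is limited by counts as low as 23 in a library, and the floor of 3 counts covers counting error only.

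The members and lists were chosen with earlier results of these data known. Named genes were the 10 largest rises and falls among called genes with groups apart, the extremes and the middle of each role list, the 3 genes on either side of the minimum sum, the extremes of each run, and Trim28, Setdb1 and corepressors changed at least 1.5-fold. The lists are given by their counts and medians, with no test.

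Fingers and KRAB matches (at least 8 of 10 conserved A box positions, any isoform) were counted by pattern in coding sequences of GENCODE, translated, in place of the RefSeq proteins planned. Divergent KRAB and SCAN domains can be missed. Symbols matched RefSeq for 271 members by current and 12 by older name. Since the reference is GRCm38, only gene order and promoter windows were taken from it. Other scalings, tests, filters, minimum sums and a replicate block were tried, as was leaving out each library. All value columns were used.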

Additional observations from a re-analysis of the deposited data

How the results depend on the processing

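Over the scalings, tests, filters, minimum sums and left-out libraries, 27 to 51 members were higher and 121 to 173 lower in K36M (39 and 158 as reported), and no result reversed. The median log2 fold change of the members, reported as -0.22, was -0.18 with upper quartile scaling, -0.17 with total counts, -0.31 with the authors' factors, -0.24 at a minimum sum of 250, -0.19 at 1000 and -0.24 with a sum of at least 10 CPM, and it ran from -0.24 to -0.20 with 1 library left out. Scaling moved all genes with it: the members' median minus that of tested genes with the minimum sum stayed at -0.22 to -0.18, against -0.20 as reported. Members with a KRAB match called lower numbered 74 to 103, and those called higher 7 to 14. The motif and the settings for it, the chromosome 13 run and KRAB matches were chosen after seeing the data. Motif members called higher, 0 as reported, numbered 1 with DESeq2 size factors, 2 with upper quartile scaling, 2 with total counts, 1 with limma-voom and 2 at a mean of at least 5 CPM, and 0 to 1 with 1 library left out. Members of the chromosome 13 run called lower, 11 as reported, numbered 6 with DESeq2's Wald test and 8 to 11 with 1 library left out; the cause was not tested. Deviations of same-numbered libraries from their group means were not correlated over genes (r = 0.0017). That value cannot show whether these libraries shared a culture or a preparation, which the labels do not state. With a replicate block 37 members were higher and 157 lower. Of 72 named results, 17 changed their side of the threshold under at least 1 setting. Depth limits the lowest members most, and the WT libraries were the shallower ones.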
